A study of Mus musculus with 2 samples.

Results

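The 40 genes described here encode parts of the primary cilium and of intraflagellar transport, the traffic of protein trains along the ciliary shaft. They were taken by name from a list of ciliary genes and make up 40 of the 43346 genes quantified in the midbrain of mouse embryos. The names were matched by Ensembl identifier, and all 40 were found. They fall into 17 intraflagellar transport (IFT) genes, 9 Bardet-Biedl syndrome (BBS) genes, 10 genes of the transition zone and 4 genes of ciliary signalling. The tissue was midbrain of strain B6NCrl, taken at embryonic day 13.5 from male and female embryos and pooled. Its RNA longer than 200 nt was sequenced in 2 libraries, labelled biological replicates 1 and 2, with 10 ng of input RNA and spike-ins in each. No mutation or treatment is given in the labels, and there was no other tissue or age. The questions open to these data are therefore the level of each gene, how the genes stand to each other within the tissue, which transcripts carried them and how far the libraries differed.

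The primary cilium is a single, non-motile projection built on a centriole. Neural progenitors carry theirs into the ventricle, and in the developing neural tube Hedgehog signals are processed inside it. IFT trains, built of the IFT-A and IFT-B complexes, carry cargo to the tip when drawn by kinesin-2 and return it when drawn by dynein-2. The BBSome links membrane proteins to these trains, and the transition zone at the base is the gate through which they pass.

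RFX transcription factors are known to bind X-box sequences in promoters of ciliary genes, so the promoters of the 40 genes were searched for such letters. RefSeq promoters of build GRCm38.p6, each reaching from 250 bases before to 50 bases after a transcription start, were held for 36 of the 40 genes. Ift122, Ift80, Ift81 and Tmem67 had none in the table. An X-box-like motif of 14 letters, read on both strands, has fixed letters GT, CC, G and AAC, with any 2, 3 and 1 bases between them. It lay in promoters of 10 of these 36 genes (27.8%). The same letters lay in promoters of 330 of 10111 detected protein-coding genes (3.26%) and of 673 of 27025 genes in the whole table (2.49%). The match was found in 5 of 9 transition zone genes, in 3 of 9 BBS genes, in 2 of 14 IFT genes and in 0 of 4 signalling genes. The sites of the 5 transition zone genes are shown because this group held the largest share, together with the BBS and the IFT site nearest to a transcription start. Capitals mark the motif, and each sequence is written on the strand on which it matches:
B9d2: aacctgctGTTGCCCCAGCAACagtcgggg
Mks1: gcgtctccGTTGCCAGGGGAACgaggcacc
Tctn1: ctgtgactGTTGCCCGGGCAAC
Tctn2: gaggaccaGTAGCCATGGTAACctccaatc
Tmem231: agcgccgaGTCTCCACGGCAACcgacggcg
Bbs1: tcccaggcGTCGCCTTGGCAACcagctcag
Ift22: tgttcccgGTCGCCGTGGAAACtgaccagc

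The B9d2 site is at chr7:25680788-25680817 on the plus strand, and that of Mks1 at chr11:87853183-87853212 on the plus strand. The Tctn1 site, at chr5:122264411-122264432 on the minus strand, ends where the promoter window ends. The Tctn2 site lies at chr5:124598679-124598708 on the minus strand and the Tmem231 site at chr8:111933781-111933810 on the plus strand. The sites of Bbs1, at chr19:4906605-4906634, and of Ift22, at chr5:136908109-136908138, are on the plus strand. In these 7 genes the centre of the motif lay between 55 bases before the start, in Tctn2, and 43 bases after it, in Tctn1. The Mks1 and Tctn1 letters also matched when read on the other strand, and Ift22 held another match further upstream. The remaining genes with a match were Bbs4, Bbs7 and Ift57. The shorter sequence GTTGCC, which can lie inside the longer motif, occurred in promoters of 18 of the 36 genes (50%), against 14.1% of all genes in the table. These matches are descriptions of letters and do not show binding. The median level was 17.1 TPM over the 10 genes with the motif and 17.0 TPM over the 26 genes without it.

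The libraries held 31436613 gene reads in replicate 1 and 40215359 in replicate 2, as estimated by the authors, and spike-ins took a further 2.22% and 4.06% of all reads in those libraries. TPM (transcripts per 1000000) are reads scaled to the length of the expressed transcripts and to a common total. A gene counted as detected at 1 TPM or more in both libraries. All 7 midbrain markers were detected, from Otx2 at 104.5 and 117.2 TPM to En2 at 1.60 and 1.72 TPM in replicates 1 and 2. All 8 neural progenitor markers and all 8 neuron markers were detected too, with summed levels of 2194 and 2100 TPM for progenitors and of 4409 and 3993 TPM for neurons. In such bulk tissue, fewer cells of a type and less RNA per cell cannot be told apart. The labels name separate tissue samples for the replicates but the same donor entry, so the SDs measure only the spread between these 2 libraries.

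All 40 ciliary genes were detected, against 12929 of 21474 protein-coding genes (60.2%). Their median was 17.8 TPM in replicate 1 and 17.1 TPM in replicate 2, beside 19.9 and 19.6 TPM for the detected protein-coding genes, and 16 of the 40 lay above the median of those genes. Only 1 gene had a mean of 100 TPM or more, 29 stood between 10 and 100 TPM, and 10 lay below 10 TPM. The highest gene, Ift46 (chromosome 9, 44767908 to 44793447, GRCm38), exceeded the lowest, Gpr161 (chromosome 1, 165295789 to 165326745), by 41.8-fold. In the order of all 40 genes by mean, 18 of the 39 pairs of neighbours overlapped in their library values, and 33 overlapped in the TPM intervals that the authors deposited, whose confidence level is not stated. The depth behind these values ran from 185 reads for Tctn1 in replicate 1 to 3067 reads for Ift46 in replicate 2.

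The IFT-B genes were the most abundant of the set, led by Ift46, Ift20, Ift27 and Ift22. Ift46, a core subunit, was at 137.0 TPM in replicate 1 and 141.1 TPM in replicate 2. Ift20, the subunit also known from the Golgi, where it sorts proteins bound for the cilium, was at 102.8 and 96.8 TPM. Ift27 and Ift22 encode Rab-like small GTPases of the core. Ift27 was at 88.7 and 88.0 TPM, and Ift22 at 73.4 and 75.1 TPM. These 4 genes did not overlap in their values, so their order was the same in both libraries. Ift81 and Ift74 encode partners that bind each other and tubulin. Ift81 stood at 66.1 and 57.1 TPM and Ift74 at 34.6 and 30.7 TPM, and Ift81 was the higher of the pair in each library. Between them lay Ift57, a peripheral subunit, at 44.6 and 41.0 TPM, and Ift52, a core scaffold protein, at 39.3 and 36.4 TPM.

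Not all IFT-B genes were high. Ift88, the subunit missing in classic mouse models without cilia, was at 17.7 and 17.1 TPM. Ift172, the largest IFT-B protein, was at 11.8 and 12.0 TPM, and Ift80, altered in a human skeletal ciliopathy, at 9.28 and 7.82 TPM. These last 3 were below the median of detected protein-coding genes in both libraries. The IFT-B median was 44.6 TPM in replicate 1 and 41.0 TPM in replicate 2 over 11 genes.

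The 5 IFT-A genes of the set were lower and closer together. Ift122 stood at 19.3 and 20.4 TPM and Wdr35 at 19.0 and 18.2 TPM, followed by Ift140 at 15.7 and 13.8 TPM. Ttc21b, a peripheral subunit, was at 12.0 and 10.7 TPM, and Wdr19 was lowest at 7.66 and 7.21 TPM. The highest of these 5 genes exceeded the lowest by 2.67-fold, against 16.3-fold among the 11 IFT-B genes. With Ift43, an IFT-A gene measured outside the set, the IFT-A span was 7.08-fold, and with 6 further genes that of IFT-B was 20.4-fold. The library values of neighbouring genes among the 5 did not overlap, while the deposited intervals did in 2 of 4 pairs. Dync2h1, the heavy chain of the dynein-2 motor that returns IFT trains, was at 17.8 and 15.5 TPM, between Wdr35 and Ift140 by its mean. Over all 17 IFT genes, 3 of 16 neighbouring pairs overlapped, namely Ift88 with Dync2h1, Dync2h1 with Ift140, and Ift172 with Ttc21b. By the deposited intervals 10 of 16 overlapped.

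**Figure D1:**
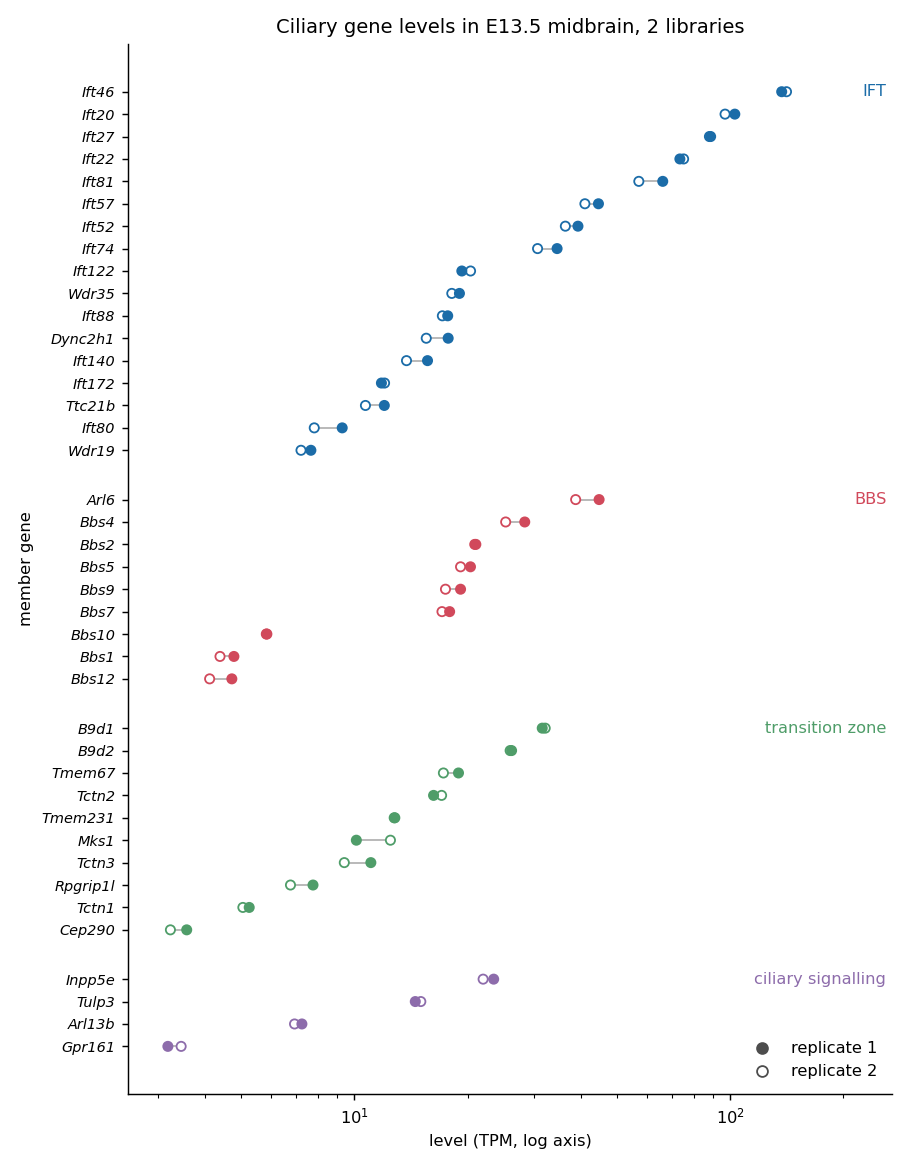
Level of each of the 40 genes in TPM on a log axis, sorted by mean within the IFT, BBS, transition zone and signalling groups, with filled points for replicate 1 and open points for replicate 2 joined by a line. The 2 libraries of a gene lie close together compared with the 41.8-fold span from Ift46 to Gpr161.

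The BBSome genes formed a narrow band, with exceptions at either end. Bbs4 was at 28.4 and 25.3 TPM, Bbs2 at 20.90 and 21.04 TPM, and Bbs5, which binds membrane lipids, at 20.4 and 19.2 TPM. Bbs9 was at 19.2 and 17.5 TPM and Bbs7 at 17.9 and 17.1 TPM. The values of Bbs5 overlapped those of Bbs9, and those of Bbs9 overlapped those of Bbs7, although the order of these 3 was the same in both libraries. The values of Bbs5 lay above those of Bbs7 without overlap. Bbs1, which meets Arl6 at the membrane, was far below the other subunits at 4.78 and 4.39 TPM. The proteins of the BBSome share a complex, yet the highest and lowest of the 6 subunit genes in the set differed by 5.85-fold. With the subunits Ttc8 and Bbip1, measured outside the set, the span over 8 genes was 7.08-fold, of Bbip1 over Bbs1. Arl6, the GTPase that recruits the complex to membranes, was highest in the group at 44.8 and 38.8 TPM. Bbs10 and Bbs12, chaperonin-like proteins needed to assemble the BBSome, were low at 5.83 and 5.85 TPM and at 4.72 and 4.12 TPM. The values of Bbs12 overlapped those of Bbs1.

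Among the transition zone genes, B9d1 and B9d2 were highest and Cep290 was lowest. B9d1 was at 31.6 and 32.2 TPM and B9d2 at 26.19 and 25.96 TPM, while Mks1, the third B9-domain gene, was at 10.1 and 12.5 TPM. The membrane protein genes Tmem67 and Tmem231 stood at 18.9 and 17.3 TPM and at 12.8 and 12.8 TPM. Among the tectonics, Tctn2 led at 16.2 and 17.1 TPM, followed by Tctn3 at 11.1 and 9.40 TPM and Tctn1 at 5.25 and 5.05 TPM, with no overlap between them. Mks1 and Tctn3 were the only neighbours in the group whose values overlapped. Rpgrip1l, a scaffold of the zone, was at 7.76 and 6.76 TPM, and Cep290, which helps to tie the microtubules to the membrane, at 3.58 and 3.24 TPM. The median of the scaffold pair was 5.67 TPM in replicate 1 and 5 TPM in replicate 2, below the 14.5 and 14.9 TPM of the other 8 genes.

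The 4 signalling genes stood in a fixed order, with no overlap between any neighbours. Inpp5e, the phosphoinositide phosphatase that sets the lipids of the ciliary membrane, was at 23.5 and 22.0 TPM. Tulp3, the adaptor that brings receptors into the cilium together with IFT-A, was at 14.5 and 15.0 TPM, and Arl13b, a GTPase of the ciliary membrane, at 7.25 and 6.93 TPM. Gpr161, a ciliary receptor that restrains Hedgehog signalling, was the lowest of all 40 genes at 3.19 and 3.46 TPM. Its values overlapped those of Cep290. Inpp5e shares 874 exonic bases with Pmpca on the opposite strand, a gene at 90.0 and 83.2 TPM, and Cep290 shares 881 exonic bases with 4930430F08Rik at 9.17 and 8.04 TPM. No source used here says whether reads were counted by strand, and the levels of Inpp5e and Cep290 are therefore uncertain. Tctn1 (1574 bases shared with Hvcn1), Tmem67 (289 with Rbm12b2) and Ift57 (225 with Gm15518) are uncertain likewise. Arl6, Bbs12, Bbs4 and Ift88 share between 32 and 194 exonic bases with a gene on the opposite strand. Inpp5e, Cep290, Tctn1, Tmem67 and Ift57 were also the 5 genes with fractional read estimates, while the other 35 had whole numbers in both libraries to within 0.005 reads.

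Of the 5 differences between groups that were computed, that of IFT-B and IFT-A was the largest. The median of log2(TPM + 0.1) was 1.505 higher for IFT-B genes in replicate 1 and 1.57 higher in replicate 2, a 2.90-fold difference on average (log2 1.54 ± 0.05, SD, n = 2). With 6 further IFT-B genes and Ift43, an IFT-A gene, measured outside the set, the difference was 0.91 in replicate 1 and 0.78 in replicate 2 (1.796-fold), so its size depended on which subunits were counted. This comparison was chosen after seeing the data, and 2 of the added genes, Ttc30a1 and Ttc30b, are near-identical copies whose values are uncertain. IFT genes as a whole exceeded transition zone genes by 0.70 and 0.68, and signalling genes by 0.90 and 0.99, in replicates 1 and 2. BBS genes exceeded transition zone genes by 0.69 and 0.46. IFT and BBS genes differed by 0.01 and 0.22, a mean of 0.12 within an SD of 0.15. By means in place of medians the difference was 1.02, so it depended on the summary. An exact sign-flip test over 2 libraries cannot go below p = 0.5, so none of these differences was tested.

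Shorter transcripts went with higher levels among these genes. Across the 40 genes the Spearman correlation of TPM with expressed length was -0.69, and across the 17 IFT genes it was -0.86, against -0.28 across 12929 detected protein-coding genes. Genes within a library are not independent replicates, and length enters TPM as its divisor. The number of reads showed no such relation, with a correlation of -0.03 with length across the 40 genes. The 5 highest genes had expressed lengths between 906 nt, for Ift46 in replicate 1, and 1545 nt, for Ift81 in replicate 2, while Cep290 had 8006 nt and Gpr161 6862 nt. IFT-B and IFT-A differed in this too, with a median length of 1531 nt for IFT-B genes and of 4355 nt for IFT-A genes. B9d1 and Bbs5 were short but not high. B9d1 had a length of 745 and 723 nt at a mean of 31.9 TPM, and Bbs5 of 942 and 1011 nt at 19.8 TPM.

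**Figure D2:**
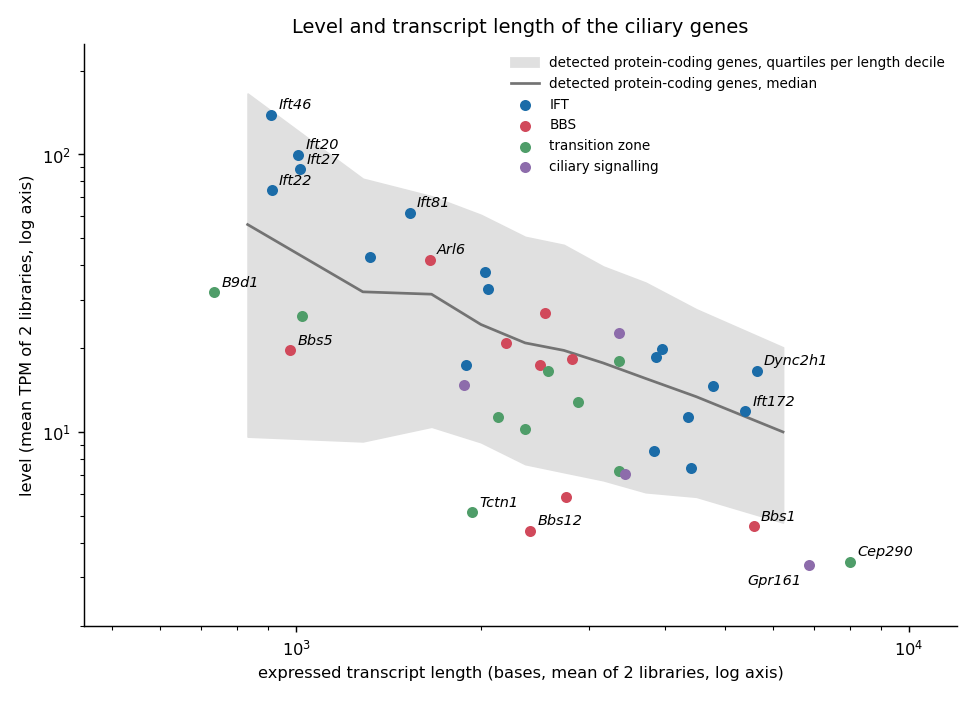
Mean TPM against mean expressed transcript length, both on log axes, for the 40 genes as coloured points. The grey line and band give the median and quartiles of detected protein-coding genes in 10 bins of length, which also fall with length, from a median of 55.9 TPM in the shortest bin. Ift46, Ift20, Ift27 and Ift22 stand at the upper left and Cep290 and Gpr161 at the lower right.

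Part of the order depended on which transcripts the reads were given to. When reads, scaled to the gene reads of their library, were instead divided by the longest annotated protein-coding transcript of each gene (for Tctn2, which has none, by its longest transcript), Ift27 and Ift20 were highest. Ift27 was at 51.0 reads per kilobase and per 1000000 gene reads in replicate 1 and at 52.8 in replicate 2, and Ift20 at 52.3 and 51.2, so their order changed between the libraries. Ift22 followed at 41.7 and 44.5. Ift46 moved to rank 5, at 20.7 and 22.4, because its longest coding transcript of 3411 nt is 3.75 times its expressed length. That transcript held only 2.72% of the gene's abundance in replicate 1 and 1.93% in replicate 2, so this rank rests on a little-used form. The leading Ift46 transcript of 1317 nt held 48.1% and 50.5%, and a coding transcript of 229 nt held 31.6% and 28.6%. Dync2h1 moved from rank 23 to rank 33, with 14264 nt in place of 5460 and 5827 nt, and Ift57 from rank 6 to rank 12. The lead of Ift81 over Ift74 was not seen on this scale, where Ift81 was at 20.25 and 18.60 and Ift74 at 20.25 and 18.59. Ranks on the 2 scales had a Spearman correlation of 0.96 across the 40 genes. The IFT-B median stayed above that of IFT-A on this scale, at 20.2 against 8.04 in replicate 1 and at 18.6 against 7.89 in replicate 2. Reads are divided by length here too, and most IFT-B genes had the shorter transcripts, so this scale cannot separate level from length.

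**Figure D3:**
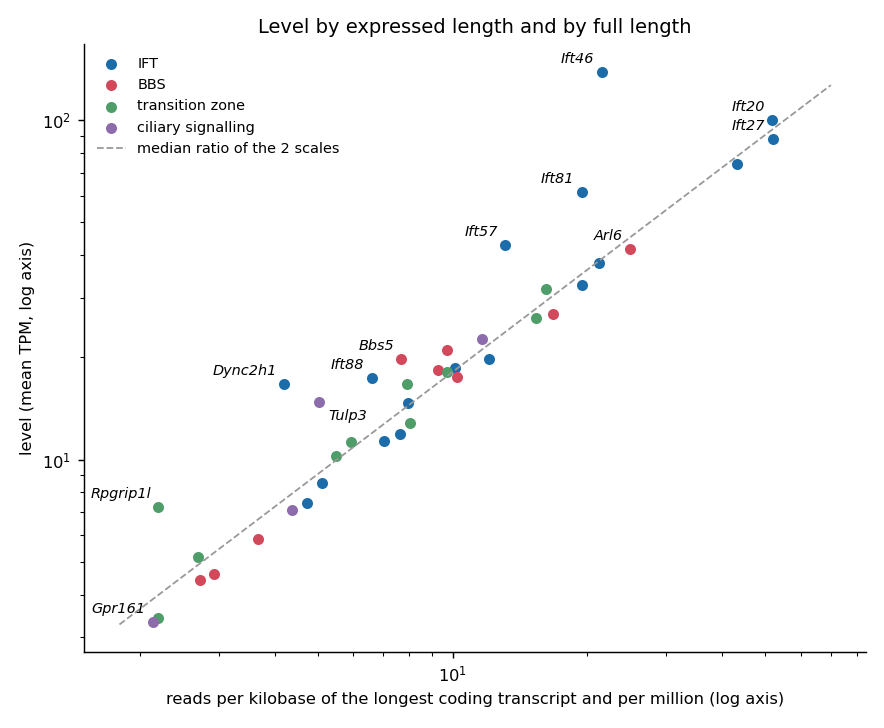
Mean TPM against mean reads per kilobase of the longest coding transcript and per 1000000 gene reads, both on log axes, for the 40 genes. The dashed line marks the median ratio of the 2 scales. The genes far above it have a longest coding transcript much longer than their expressed length, as for Ift46 (3.75 times), Dync2h1 (2.53 times) and Rpgrip1l (2.08 times).

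By mean share, protein-coding transcripts held most of the abundance of every gene except Tctn2 and Ift88. Of the 40 genes, 10 had a single annotated transcript. Of the 30 with 2 or more, 28 kept the same leading transcript in both libraries (93.3%, against 91.0% of 9469 detected protein-coding genes with several transcripts), and in 28 the leader was protein-coding (93.3%, against 89.6%). Protein-coding transcripts held a median of 83.2% of a gene's abundance, against 90.7% in those 9469 genes. Ift81 was led by a retained-intron transcript of 872 nt, ENSMUST00000144065, with 37.1% of its abundance in replicate 1 and 36.6% in replicate 2. Its full coding transcript of 2950 nt held 34.7% and 35.4%, so the leader was ahead by little. All coding transcripts of Ift81 together held 55.5% and 57.3%. Tctn2 was led by ENSMUST00000185820, a processed transcript of 2733 nt, at 72.7% and 73.2%. Of the 7 transcripts quantified for Tctn2, GENCODE M21 classes 0 as protein-coding. The quantification used the M4 annotation, whose classes were not looked at and may differ.

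Ift88 divided its abundance between a coding and a decay-prone form. Its coding transcript ENSMUST00000122063 held 50.3% in replicate 1 and 45.8% in replicate 2, while the short ENSMUST00000150296, classed as subject to nonsense-mediated decay, held 43.5% and 49.0%. The leader therefore changed between the libraries, although the shares moved by only a few percentage points. Bbs9 changed its leader as well. Of its coding transcripts, ENSMUST00000147405 held 33.5% and 22.1%, and ENSMUST00000039798 held 25.7% and 28.1%. Retained-intron transcripts held 43.1% and 40.5% of Tctn1, and 26% and 42.4% of Mks1. Mks1 was also the gene with the highest relative spread of TPM, at 14.7% (SD over mean), against a median of 4.43% over the 40 genes, and its expressed length was 2284 nt in replicate 1 and 1976 nt in replicate 2. The leaders of Rpgrip1l and Dync2h1 were short coding transcripts. In Rpgrip1l a transcript of 404 nt held 57.1% and 52.2%, against 41.9% and 46.9% for the one of 7009 nt. In Dync2h1 a transcript of 2892 nt held 60.9% and 59.2%, against 20.0% and 22.6% for the one of 14264 nt. These shares are estimates from reads that overlapping transcripts have in common, and no interval for them was used.

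**Figure D4:**
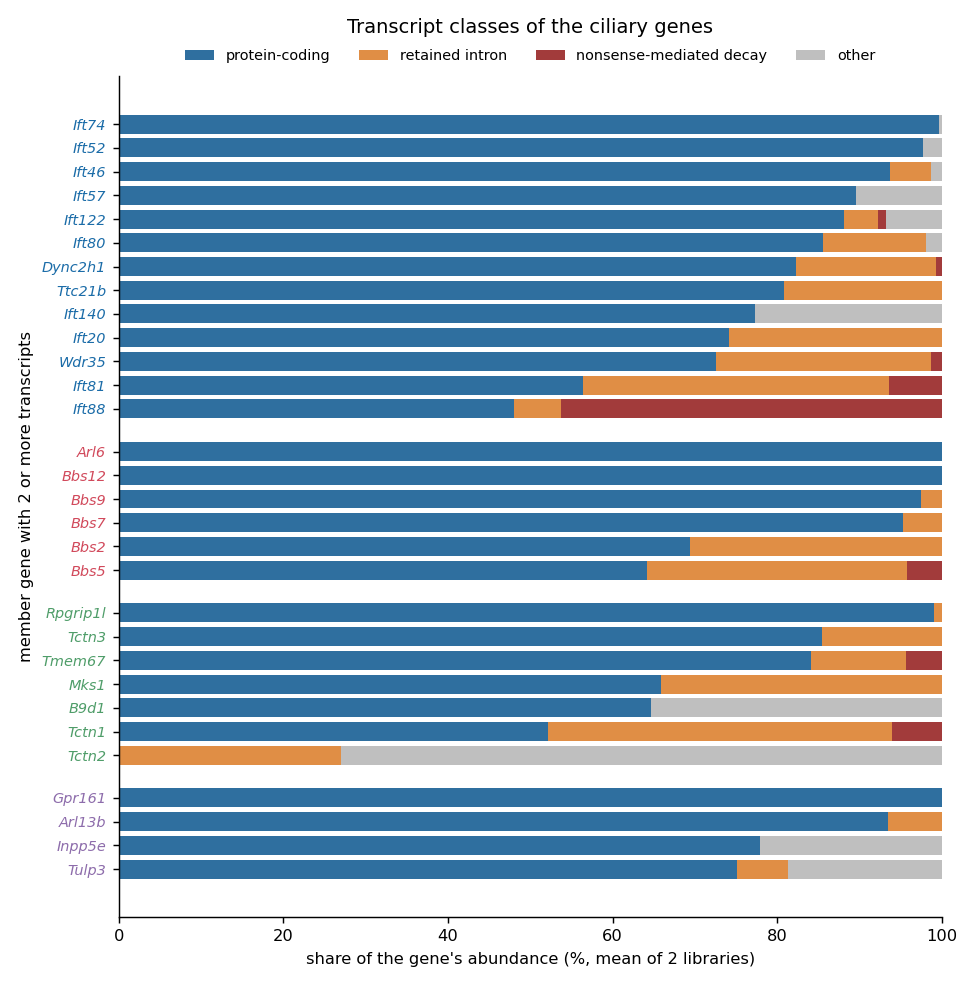
Share of each gene's abundance in percent, mean of 2 libraries, held by protein-coding, retained-intron, nonsense-mediated decay and other transcripts, for the 30 genes with several transcripts. Coding transcripts fill most bars, while Tctn2 has no coding share by the GENCODE M21 classes. Ift88, Tctn1 and Ift81 have coding shares of 48.0%, 52.2% and 56.4%.

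After TMM scaling of the reads, Ttc21b had the highest ratio of replicate 1 over replicate 2 among the ciliary genes and Gpr161 the lowest. On this scale 0 of the 40 genes differed by 1.5-fold or more, and 0 by 2-fold. Over the 14366 genes with a mean of at least 50 reads, 3.31% passed 1.5-fold and 0.724% passed 2-fold. By direction, 1.25% were higher in replicate 1 and 2.06% in replicate 2 at 1.5-fold, and 0.216% and 0.508% at 2-fold. Every ciliary gene had a mean of at least 222 reads, and among the 11701 genes with at least 200 reads 1.11% passed 1.5-fold. A count of 0 in 40 is close to these shares and is not particular to the ciliary genes. Their median log2 ratio of replicate 1 over replicate 2 was 0.01, and the values ran from -0.16 in Gpr161 to 0.20 in Ttc21b. By the ratio of TPM other genes stood at the ends, at log2 values of -0.30 and 0.24. After TMM scaling the median size of the log2 ratio was 0.08, against 0.10 over protein-coding genes with a mean of at least 50 reads. The latter include genes with fewer reads than any ciliary gene, so the 2 sets are unlike in depth. Ttc21b had 1051 reads in replicate 1 and 1186 in the deeper replicate 2, a scaled ratio of 1.145 with an exact 95% counting interval from 1.05 to 1.25. Gpr161 had 433 and 626 reads, a ratio of 0.894 with an interval from 0.789 to 1.01.

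For 30 of the 40 genes the counting interval of the ratio included 1. It lay above 1, so higher in replicate 1, for Arl6, Bbs4, Ift57, Ift74, Ift80, Ift81 and Ttc21b, and below 1 for Ift122, Ift46 and Tctn2. All these ratios lay between 0.903 and 1.145. The share of all genes with an interval that excludes 1 was not computed, so the named genes are not set apart from other genes. The split of signs depended on the scaling, with 21 of 40 genes higher in replicate 1 under TMM, 19 under library totals and 28 by the ratio of TPM. Under that last scaling the median of all genes was itself 0.04 on the log2 scale. These intervals describe counting error alone, since reads that carry no molecular identifier may copy the same molecule.

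**Figure D5:**
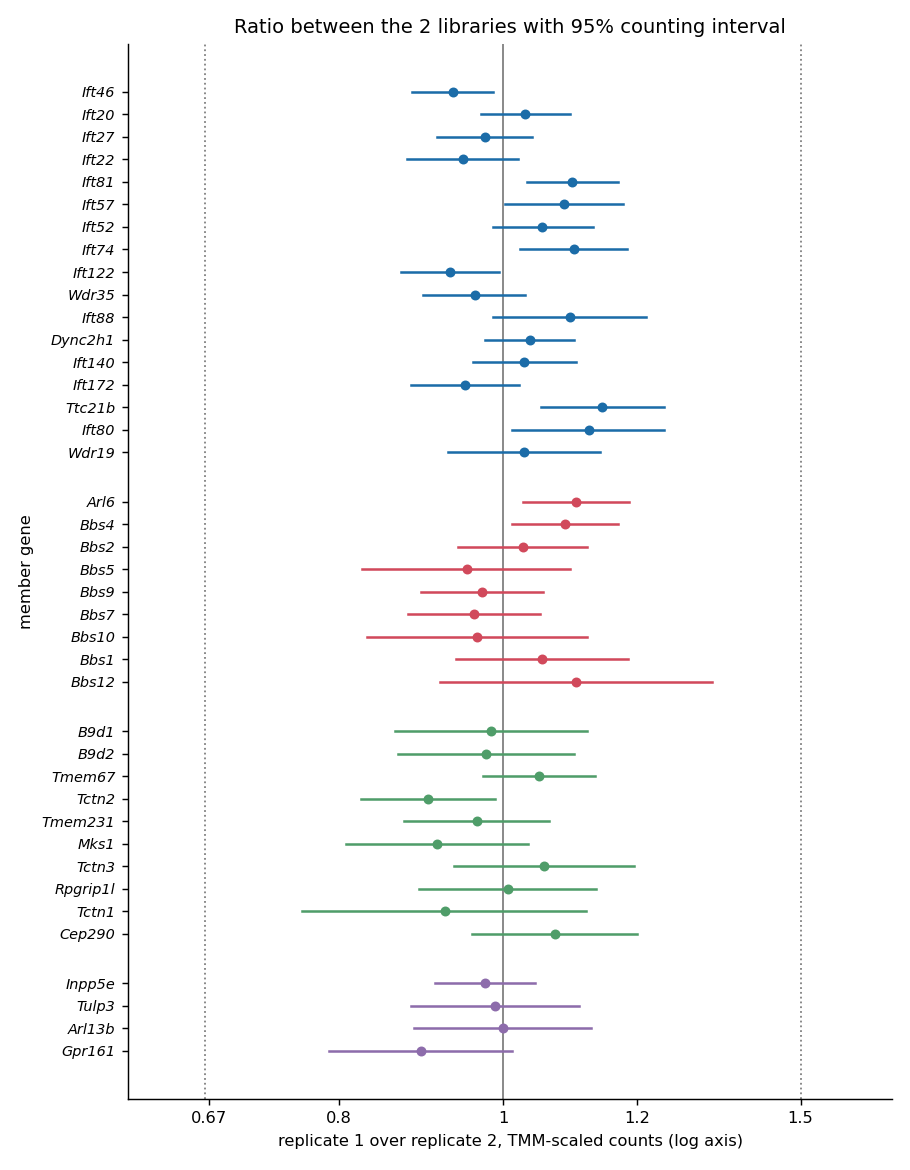
Ratio of replicate 1 over replicate 2 for each of the 40 genes on a log axis, from TMM-scaled reads, with exact 95% counting intervals as bars, in the order of the plot of levels. Every gene lies between the dotted lines at 1.5-fold in either direction, and 30 intervals include 1.

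Further genes of the same machinery spanned a wider range, with list medians in replicates 1 and 2 of 19.9 and 19.1 TPM for other IFT and motor genes and of 32.0 and 27.9 TPM for other BBS genes. They were 17.4 and 16.0 TPM for other transition zone genes and 6.74 and 6.69 TPM for membrane and cargo genes. Of 14 other IFT and motor genes all were detected, led by Kif3a at 220.7 and 171.3 TPM and Kifap3 at 80.9 and 70.3 TPM, a motor and the adaptor of kinesin-2. Ift43, an IFT-A subunit, followed at 52.7 and 52.6 TPM, above the 5 IFT-A genes of the list, and Kif17, another kinesin, was lowest at 1.23 and 1.07 TPM. The 4 other BBS genes were detected within a narrow range, from Lztfl1 at 41.2 and 38.3 TPM, Bbip1 at 34.8 and 30.2 TPM and Ttc8 at 29.2 and 25.6 TPM to Mkks, the chaperonin-like partner of Bbs10 and Bbs12, at 26.82 and 25.03 TPM. All 16 other transition zone genes were detected, with Iqcb1 at 59.5 and 50.4 TPM, Ahi1, a gene of Joubert syndrome, at 50.8 and 41.3 TPM, and Tmem216 at 45.5 and 42.6 TPM. Of 14 genes of ciliary membrane and cargo 12 were detected. Arl3, the GTPase that releases lipidated cargo in the cilium, was at 184.5 and 183.9 TPM, the diffusion-barrier gene Septin2 at 185.6 and 165.4 TPM and Rab8a at 83.9 and 82.7 TPM. By mean, the serotonin receptor gene Htr6 was lowest at 0.11 and 0.08 TPM, with 5 reads in each library. Of the 46 of these 48 genes with a mean of at least 50 reads, 0 passed 1.5-fold between the libraries. Over all 14366 genes with that many reads 3.31% passed, so a count of 0 in 46 is close to that share.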

How the data were processed

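Both libraries of 1 group were used, with group and replicate number taken from the labels. Per the labels, RNA was extracted with Ambion mirVana, and the manual of a SMARTer ultra low kit is listed. Assembly mm10 and the GENCODE M4 annotation are named in the text deposited with each library. Aligner, version, filters and strandedness of counting: not given in the sources used here. The expected counts deposited by the authors are estimated reads per gene that need not be whole. TPM as deposited is length-scaled, with a common total that includes spike-ins and tRNA entries, per the file headers and column sums. FPKM, per the file headers, is scaled to length and reads. Each transcript's part of its gene is a deposited percent. An interval for TPM (unit score) was also deposited, its confidence level unstated.

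Names, classes and positions came from GENCODE M21 (GRCm38), matched by Ensembl identifier for 42462 of 43346 genes. Expected counts were rounded, scaled with TMM in edgeR 4.0.16 (R 4.3.3) and given a constant of 0.5 for ratios. Exact Clopper-Pearson 95% intervals came from scipy 1.17.1 in Python 3.11.15. Genes past 1.5-fold or 2-fold needed a mean of at least 50 reads. With 1 library on each side of a ratio there is no test and no p-value. Group differences were taken on log2(TPM + 0.1), which understates the difference of low genes. The ratio procedure was tested on simulated data. The alternatives tried were library totals, DESeq2 1.42.0 size factors, TPM ratios, means for medians, FPKM, other pseudocounts and minimums, and each library alone. Those with a fixed transcript length, without overlapped genes, with further subunits, without Otx2, with a 200-read background, and with promoters of detected genes as background were chosen after seeing the data. The text names all 40 ciliary genes and, of each other list, the 3 highest and the lowest gene and those past 1.5-fold, except a few not reported here. Overlap partners, near-identical copies and genes under the count minimum are named outside that rule. Members and lists were chosen with earlier results of these data known. Protein sequences were not used here.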

Additional observations from a re-analysis of the deposited data

Results flagged for a closer look

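Reads outside the genes were found in entries that no comparison of the ciliary genes uses. The 97 spike-in entries held 715022 estimated reads in replicate 1 and 1699859 in replicate 2, and they took 5.36% and 9.39% of all TPM in those libraries. Because these entries share the TPM total, the TPM of every gene is lowered more in replicate 2, and the median log2 ratio of TPM over all genes was 0.04. The 26248 tRNA entries held 23.5 reads in replicate 1 and 22 in replicate 2. Both kinds were above the limit that a count of 0 allows, and there were no control samples to set beside them.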

How the results depend on the processing

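All 40 genes remained detected at 0.5 TPM and at 1 FPKM, and 36 did at 5 TPM. The 0 genes past 1.5-fold stayed 0 under every scaling, size rule and count minimum tried, while the genes of the whole table past 1.5-fold, 475 in all, became 104 at 2-fold, 1634 at a mean of 10 reads and 130 at 200 reads. Group medians in the order IFT, BBS, transition zone and signalling were 21.4, 19.8, 13.3 and 11.8 when TPM was rescaled over genes only, and 12.5, 11.5, 7.74 and 6.89 in FPKM. Per fixed transcript length they were 12.1, 9.25, 6.89 and 4.71. Means in place of medians gave 41.4 for IFT, 14.3 for transition zone and 12.0 for signalling genes, and without Inpp5e, which overlaps another gene, the signalling median was 7.09. Log2 differences of IFT-B and IFT-A were 1.48 with a pseudocount of 1, 1.58 by means, 1.27 per fixed length and 0.84 with further subunits. Those of IFT and transition zone were 0.65, 1.255 and 0.81 under the first 3 of these settings, and those of IFT and signalling 0.88, 1.56 and 1.34. IFT exceeded BBS by 1.02 by means and by 0.38 per fixed length, and BBS exceeded transition zone by 0.24 by means. With each library left out, IFT-B over IFT-A ran from 1.505 to 1.57, IFT over BBS from 0.01 to 0.22, IFT over transition zone from 0.68 to 0.70, IFT over signalling from 0.90 to 0.99 and BBS over transition zone from 0.46 to 0.69. The medians then ran from 19.3 to 20.4 for IFT, 17.5 to 19.2 for BBS, 11.9 to 12.6 for transition zone and 10.9 to 11.0 for signalling genes, and the genes with a coding leader from 27 to 28. The motif lay in promoters of 16 genes (44.4%) with 1 mismatch allowed, against 23.9% of detected protein-coding genes and 20.8% of all genes in the table, and the shorter sequence GTTGCC in 18. The median log2 ratio of the 40 genes was -0.01 under library totals and 0.09 for TPM. Of the single levels, 28 of 40 moved by more than their SD when TPM was rescaled over genes only. The change of unit moves the FPKM and fixed-length values by construction. Rescaling over genes only likewise raises every gene of a library by the same factor. For the other shifts the cause was not tested. No paired analysis was possible because there is 1 group. With 2 libraries, a spread is poorly known, and below about 200 reads, as for Tctn1, counting error limits the ratio.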

Other observations

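The 6 RFX factor genes looked at, from a family whose products bind X-box sequences, were all detected. Rfx3 stood at 26.3 TPM in replicate 1 and 28.1 TPM in replicate 2, Rfx4 at 23.2 and 26.8 TPM and Rfx7 at 14.5 and 15.4 TPM. Rfx2 was lowest at 2.55 and 3.96 TPM, and its log2 ratio of replicate 1 over replicate 2 was -0.69, past 1.5-fold. The other 5 did not pass, and 2.06% of all genes with enough reads were higher in replicate 2 by 1.5-fold. All 6 log2 ratios were below 0, that of Rfx3 only at -0.02. This is not particular to RFX genes, since all ratios of the midbrain, endothelial and erythroid markers were below 0 too.

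Genes of motile cilia, the beating form found on ependyma and choroid plexus, were also measured. Of 18 such genes 10 were detected. Rsph9 at 20.9 and 21.1 TPM, Ccdc40 at 22.7 and 19.2 TPM and Spag6l at 9.29 and 9.21 TPM led the list, and the axonemal dynein gene Dnah11 was lowest by mean at 0.08 and 0.05 TPM. Foxj1, the transcription factor that drives motile cilia, was at 5.04 TPM in replicate 1 and 9.71 TPM in replicate 2 (log2 ratio -0.99, 255 and 655 reads). Ak7 was at 0.43 and 0.95 TPM (log2 ratio -1.16). These were 2 of the 12 genes with enough reads, and 2.06% of all such genes were higher in replicate 2 by 1.5-fold. Of the 12 genes, 10 had ratios below 0 on the log2 scale and 2 above. Of the 6 genes below the count minimum 5 were higher in replicate 2, among them Ccno with 10 and 88 reads, Mcidas with 13 and 42 and Gmnc with 3 and 32, and Hydin, with 23 and 28 reads, was not. Choroid plexus, a tissue whose epithelium carries such cilia, showed the same direction in these libraries. Its markers summed to 179.9 TPM in replicate 1 and 252.5 TPM in replicate 2, or to 75.4 and 135.3 TPM without Otx2, which is also a midbrain marker. Of the list 6 of 7 were detected, with Kl at 0.45 and 0.49 TPM. Ttr was at 61.8 and 116.5 TPM, Clic6 at 1.00 and 2.46 TPM and Kcne2 at 1.76 and 4.14 TPM, 3 of 7 genes past 1.5-fold. The part of choroid plexus RNA in the differences of Foxj1, Ak7 and Rfx2 was not tested.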
